A study of Gallus gallus with 8 samples.

Results

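The expression of 9 genes of the Hedgehog pathway was examined in the liver of broiler chickens (Gallus gallus), namely the ligand genes SHH and IHH, the receptor genes PTCH1 and SMO, the inhibitor genes HHIP and SUFU, and the transcription factor genes GLI1, GLI2 and GLI3. They were picked by gene symbol from a table of 23613 genes, and each had to have a group mean above 0. All 9 met that condition, out of 20170 genes that did so in the whole table. The lowest of them was GLI3, and none fell outside the limit. The set was chosen from results of this same comparison, since it was built around GLI1, which was already known to pass the test. The fold change and p-value of GLI1 therefore describe why the set exists and are not support for it, and the values of the other genes come from the same contrast.

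The birds were raised to a final target stocking density of 39.1 kg/m2 (8 lb/ft2, treatment D, high density) or 24.4 kg/m2 (5 lb/ft2, treatment A, low density). Livers were taken on day 46 from birds labelled male, and RNA was measured by sequencing. Each group had 4 libraries, and each library pooled RNA from 4 birds, so a group stands for 16 birds. What was used is the authors' deposited table of the high against the low density group, which gives no values per library, so no spread between pools can be shown for any gene. The comparison asks whether crowding changes gene expression in the liver.

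Hedgehog ligands are secreted proteins that bind the receptor PTCH1, which in their absence holds the membrane protein SMO inactive. Once SMO is released it acts at the primary cilium, SUFU lets go of the GLI proteins, and these switch target genes on. GLI1 is itself a target of the pathway and mainly an activator, while GLI2 and GLI3 can also be cut into repressors. PTCH1 and HHIP are targets too and dampen the signal, HHIP by binding the ligands outside the cell. In mammalian liver the ligands are described mainly from injured or ballooned hepatocytes and from bile duct cells, and the responding cells are largely stellate cells, portal fibroblasts and bile duct cells.

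Among the 9 genes, GLI1 was higher at high density and passed the test, and HHIP was lower by a slightly larger amount but missed the threshold. GLI1 differed by 1.60-fold and HHIP by 1.70-fold in the opposite direction. The ligand genes, SUFU, GLI2 and GLI3 were higher by 1.12-fold to 1.24-fold without passing, and PTCH1 and SMO were within 1.03-fold of equality. In all 6 genes were higher and 3 lower. Their median log2 fold change was 0.16, against a median of 0.001 over all 20170 genes. Called means an adjusted p under 0.05 by the authors' deposited table. By that rule 1 of the 9 genes was called, beside 0.273% of all genes tested (0.159% as higher and 0.114% as lower). At an unadjusted p under 0.05 the count was 2 of the 9 genes, GLI1 and HHIP, beside 5.58% of all genes. Since the set was built around GLI1, nothing is read from these shares.

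Levels are given on the scale of the deposited group mean, which is scaled by gene length and by library, as the lowest values show, and whose name the header does not give. The table gives the higher of the 2 group means, and the lower one was obtained by dividing it by the size of the fold change. This takes the sign of the fold change as naming the group with the higher mean, and the fold change as the ratio of the means, which the table does not state. Among genes at the value of about 1 read, 3 of 8 repeated values held genes of both signs (12 of 57, 17 of 56 and 19 of 79 genes above 0), so the sign does not always name that group at the very lowest levels. The levels below are in this sense derived. SUFU, SMO and IHH were the most abundant of the 9. SUFU stood at 18.8 in the high density group, against 16.8 in the low density group. SMO stood at 15.4 in the high density group, against 15.9 in the low density group. IHH stood at 13.2 in the high density group, against 11.8 in the low density group. These genes kept the same order in both groups, and their means exceeded those of 85.0% to 88.9% of all genes with a value.

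A middle tier held SHH, HHIP and GLI1, and PTCH1, GLI2 and GLI3 were lowest. PTCH1 stood at 1.06 in the high density group, against 1.08 in the low density group. GLI2 stood at 0.324 in the high density group, against 0.283 in the low density group. GLI3 stood at 0.251 in the high density group, against 0.217 in the low density group. GLI1 was therefore the most abundant of the 3 GLI genes at either density, at 13.2 times the level of GLI2 in the high density group and 9.48 times in the low density group. The order of levels changed between the densities only within the middle tier. At high density GLI1 came before SHH and HHIP, whereas at low density HHIP came before SHH and GLI1. The level of GLI1 over that of HHIP was 1.98 in the high density group, against 0.730 in the low density group. Without values per library it cannot be said which neighbours in this order differ beyond their spread.

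**Figure D1:**
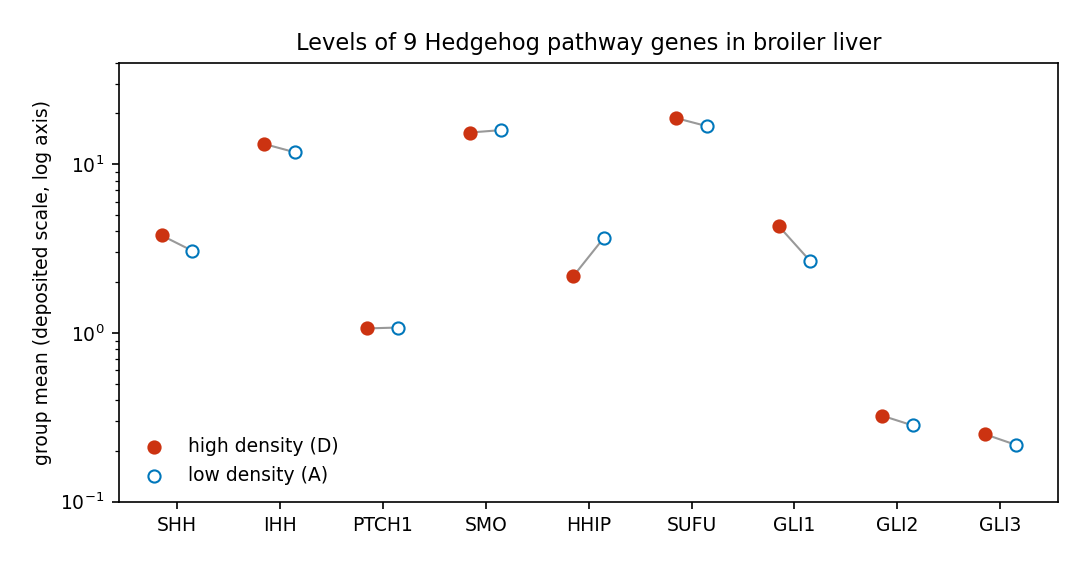
Group means of the 9 genes on the deposited scale (log axis), with a filled point for the high density group left of an open point for the low density group, and lines joining the points of 1 gene. The points of GLI1 and HHIP slope in opposite directions (GLI1 4.28 at high and 2.68 at low density, HHIP 2.16 at high and 3.67 at low density), while PTCH1 and SMO are nearly level; no error is drawn because the table gives none.

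The 2 ligand genes were both slightly higher at high density, and neither passed the test. SHH, which encodes Sonic hedgehog, stood at 3.79 in the high density group, against 3.07 in the low density group (log2 fold change 0.30, adjusted p 1.0 by the authors' deposited table). Its unadjusted p was 0.0742. The table has no column of standard errors, so the ones given here are derived from the size of the fold change and its p-value, under the assumption of a Wald test. For SHH that error was 0.17 on the log2 scale, which makes an approximate 95% interval of 0.980-fold to 1.56-fold. IHH, which encodes Indian hedgehog, had a log2 fold change of 0.16 (approximate SE 0.15, adjusted p 1.0 by the authors' deposited table), with an interval of 0.917-fold to 1.37-fold. The level of IHH was 3.48 times that of SHH in the high density group and 3.83 times in the low density group. SHH lies on chromosome 2 (8166209 to 8175880, GRCg6a, the build of all positions here) and IHH on chromosome 7 (22301636 to 22309634).

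The receptor genes were the most even of the set. PTCH1 had a log2 fold change of -0.02 (approximate SE 0.19, adjusted p 1.0 by the authors' deposited table), and its approximate 95% interval ran from 0.759-fold to 1.29-fold. SMO had one of -0.05 (approximate SE 0.11, adjusted p 1.0 by the authors' deposited table), with the tightest interval of the 9 genes, 0.834-fold to 1.12-fold. SMO lies on chromosome 1 (1339503 to 1348245). A p above the threshold does not show that these genes were equal, but the intervals limit how far each could have moved. The fold change of GLI1, 1.60, lies above the upper end of the interval of either receptor gene. The interval of GLI1 itself, 1.28-fold to 2.00-fold, slightly overlaps that of PTCH1. The difference between GLI1 and PTCH1 itself was not tested, as no values per library were used. The set was built around GLI1 because it passed in this comparison, so nothing is read from its distance to the receptor genes. PTCH1 (41783741 to 41851352) lies on chromosome Z, which male birds carry in a pair, and the 481 genes of that chromosome with a mean of at least 1 had a median log2 fold change of -0.02.

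The inhibitor genes went opposite ways. HHIP stood at 2.16 in the high density group, against 3.67 in the low density group, a log2 fold change of -0.76 (approximate SE 0.20, p = 0.000195, adjusted p 0.0689 by the authors' deposited table). Its approximate interval was 0.446-fold to 0.778-fold. HHIP ranked 67th of 20170 genes by p, and only 11 genes that were not called had a smaller p. Of the 23 genes called as lower, 8 had a smaller log2 difference than HHIP. With the p-values adjusted over the 10867 genes whose mean was at least 1 in place of the whole table, HHIP had an adjusted p of 0.0408, so its call depends on which genes are counted as tests. That adjustment calls 0.534% of the genes it covers. SUFU, the cytoplasmic protein that restrains the GLI factors, had a log2 fold change of 0.16 (approximate SE 0.14, adjusted p 1.0 by the authors' deposited table), with an interval of 0.929-fold to 1.34-fold. SUFU lies on chromosome 6 (24136936 to 24218063).

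HHIP (chromosome 4, 30847852 to 30924570) lies entirely within the span of ANAPC10, a subunit gene of the anaphase-promoting complex on the opposite strand. The sources used here do not say whether reads were counted by strand. ANAPC10 had a log2 fold change of 0.02 (approximate SE 0.27, adjusted p 1.0 by the authors' deposited table) at 0.944 in the high density group, against 0.932 in the low density group. A small RNA gene inside HHIP, RF02271_38, had one of -0.06 (approximate SE 0.81). The gene model nearest to HHIP on its left, ENSGALG00000052835, had one of -0.26 (approximate SE 0.24), and ABCE1 on its right one of 0.01 (approximate SE 0.12) by the authors' deposited table. None of these 4 was called. The other 8 genes of the set overlapped no other gene model.

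Of the transcription factor genes, GLI1 was the called gene. It stood at 4.28 in the high density group, against 2.68 in the low density group, a log2 fold change of 0.68 (approximate SE 0.16, p = 3.44e-05, adjusted p 0.0214 by the authors' deposited table). Its approximate interval was 1.28-fold to 2.00-fold. By p it ranked 38th of the 55 called genes, and by log2 fold change 24th of the 32 called as higher, so it was not among the largest changes of the table. Its approximate standard error was close to the median of 0.18 over the called genes. Among the 4897 genes whose mean lay within 2-fold of that of GLI1, 22 were higher by at least as much, and 65 (1.33%) lay at least as far from 0 in either direction. For HHIP the corresponding numbers were 33 lower by at least as much and 49 in either direction (1.04%) of 4704 genes. GLI1 was picked because it passed in this comparison, so a small share follows from that choice. Nothing is read from either share.

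GLI2 and GLI3, the other two GLI genes, had small positive differences and wide errors. The log2 fold change of GLI2 (chromosome 7, 25779538 to 25958144) was 0.19 (approximate SE 0.31, adjusted p 1.0 by the authors' deposited table), and its interval ran from 0.755-fold to 1.73-fold. That of GLI3 (chromosome 2, 50700827 to 50894639) was 0.21 (approximate SE 0.31, adjusted p 1.0 by the authors' deposited table), with an interval of 0.762-fold to 1.75-fold. Both intervals include no difference as well as the fold change of GLI1. Among genes of similar mean, 66.3% lay at least as far from 0 as GLI2 and 67.5% as GLI3.

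**Figure D2:**
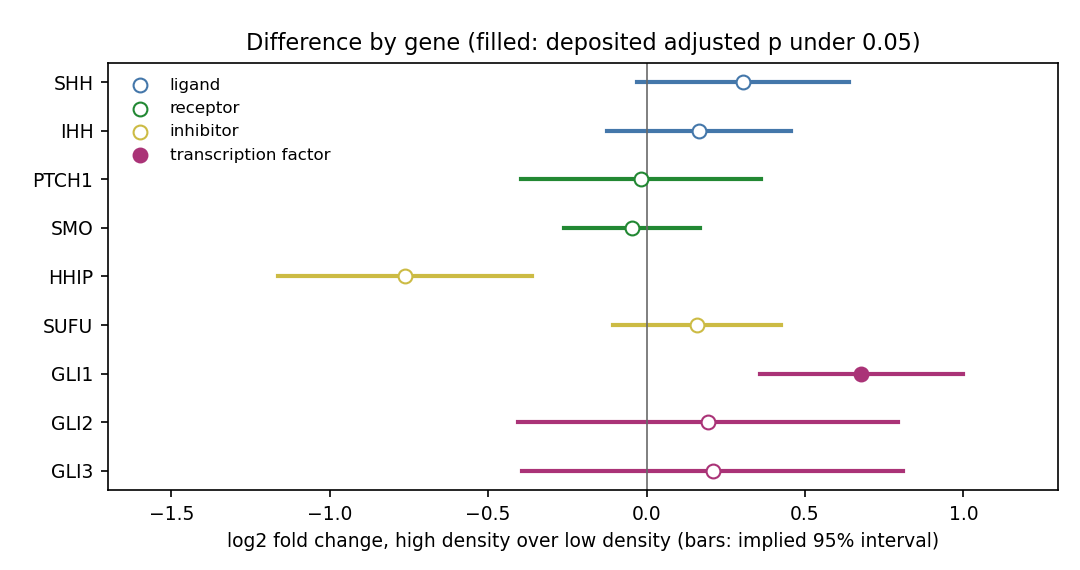
Log2 fold change of each of the 9 genes, high over low density, ordered by role from ligands to transcription factors, with approximate 95% intervals derived from the deposited p-values. GLI1 (0.68, filled, called) and HHIP (-0.76, open, not called) are the only genes of the 9 whose interval leaves out 0; the intervals of GLI2 and GLI3 are the widest.

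Before the rest of the pathway, facts of the whole liver sample bear on these values. In bulk tissue, fewer cells of a type and less RNA per cell cannot be told apart. Hepatocyte marker genes were even, with 6 of 11 higher, and 10 of the 11 had a mean of at least 1. Their summed level, carried mainly by a few very abundant genes, was 65430 in the high density group, against 67360 in the low density group. Bile duct cell markers were lower at high density in 8 of 10 cases (median log2 fold change -0.27, summed level 70.7 in the high density group, against 81.7 in the low density group). Stellate cell and fibroblast markers were lower in 14 of 18 cases (median -0.17, summed level 383.7 in the high density group, against 425 in the low density group). Endothelial markers were lower in 6 of 10 cases (median -0.03, 123.1 in the high density group, against 127.6 in the low density group) and macrophage markers in 8 of 9 (median -0.08, 536.5 in the high density group, against 573.1 in the low density group). T and NK cell markers were lower in 10 of 10 cases (median -0.49, 47.1 in the high density group, against 65.8 in the low density group), and erythroid markers higher in 6 of 7 (median 0.43, 413.6 in the high density group, against 288.9 in the low density group). The globin genes HBA1 and HBBA carried most of the erythroid sum. HBA1 stood at 186.5 in the high density group, against 138.2 in the low density group, and HBBA at 208.0 against 133.8. The 1 lower erythroid marker, HBZ, had a higher group mean of 0.375 (log2 fold change -2.21, p = 0.0144 by the authors' deposited table). Between 0 (stellate cell and fibroblast) and 5 (erythroid) symbols per marker list matched no row, and no matched marker was listed at 0. GNLY, a cytolytic granule protein of T and NK cells, was the 1 marker called (log2 fold change -0.58, adjusted p 0.0396 by the authors' deposited table). That count stands beside 0.273% of all genes tested, and nothing is read from it. Next by p among markers with a mean of at least 1 were SLC4A1, the red cell anion exchanger (0.67, p = 0.00163), and CD247, a T cell receptor subunit (-0.60, p = 0.00779), by the authors' deposited table. GLI1 was thus higher while the markers of bile duct and stellate cells had negative medians, and HHIP was lower in the same direction as those medians. The part of cell composition in either difference was not tested. Genes of the W chromosome, which only female birds carry, had a value in 92 cases although the birds are labelled male, and 70 of these were higher at high density, with a median log2 fold change of 0.89. Among all 92, an unadjusted p under 0.05 was found for 8 higher and 2 lower genes, beside 5.58% of all genes tested. Where the higher group mean reached at least 1, 8 of 8 W genes were higher (median 0.87, beside 0.68 for GLI1). Their median approximate SE was 1.12, beside 0.16 for GLI1. A gene can reach that mean through the group where it is high alone. The W genes share 1 chromosome and the same pools, so they are not separate observations. Of these 8, 0 had an unadjusted p under 0.05. The part of bird sex in any difference given here was not tested.

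Of 46 genes listed for ligand processing, co-receptors and signal transduction, 37 had a value (the other 9 symbols matched no row and may be spelled otherwise there), 16 higher and 21 lower at high density, and the median of their log2 fold changes was -0.02. None was called, where 0.273% of all genes were, a share that gives fewer than 1 call in a list of this size, so nothing is read from that count. The smallest adjusted p was 1.0. At an unadjusted p under 0.05, passed by 5.58% of all genes, there was 1 gene, DISP3, named after its value was seen. It had a log2 fold change of 0.43 (p = 0.0471 by the authors' deposited table) at a mean just under 1. DISP3 is a relative of the protein that releases Hedgehog ligands, DISP1, which had a log2 fold change of 0.04 by the authors' deposited table. DHH, the third ligand gene, stood at only 0.141 in the high density group, against 0.203 in the low density group (log2 fold change -0.53, approximate SE 0.50).

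Receptor and co-receptor genes were lower in 6 of 7 cases, by amounts that did not pass the test. GAS1, a co-receptor that helps ligand reach PTCH1, stood at 1.72 in the high density group, against 2.54 in the low density group (log2 fold change -0.57, approximate SE 0.36, p = 0.113 by the authors' deposited table). The related co-receptors CDON and BOC had log2 fold changes of -0.10 (approximate SE 0.19) and -0.05 (approximate SE 0.29) by the authors' deposited table. The glypican gene GPC4 was the most abundant of this group, at 62.5 in the high density group, against 71.3 in the low density group (log2 fold change -0.19, p = 0.132 by the authors' deposited table).

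Signal transduction genes were split, 12 higher and 11 lower, and stayed within -0.11 and 0.30 on the log2 scale. BTRC, a ubiquitin ligase subunit that marks GLI proteins for processing, had a log2 fold change of 0.26 (p = 0.0682 by the authors' deposited table). KIF7, the ciliary kinesin that regulates GLI proteins, had one of 0.16 (approximate SE 0.14, p = 0.269 by the authors' deposited table). Among 52 genes of the primary cilium, 27 were higher and 25 lower (median 0.04), with none called and 2 at an unadjusted p under 0.05, again beside 5.58% of all genes. Both are genes of intraflagellar transport. These were IFT57 (log2 fold change 0.52, p = 0.00998, adjusted p = 0.66) and IFT140 (0.32, p = 0.049) by the authors' deposited table. CEP164, of the basal body, had the third smallest p of that list (0.34, p = 0.0662 by the authors' deposited table).

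Of 36 genes reported as GLI targets in other tissues, in most cases in mammals, 27 had a value and 4 were listed at 0 (OLIG2, NKX2-2, FOXF2 and HOXD13). Of the 27, 12 were higher and 15 lower, the median of their log2 fold changes was -0.08, and none was called or had an unadjusted p under 0.05, beside 0.273% and 5.58% of all genes. RAB34, a ciliary GTPase gene, had a log2 fold change of -0.51 (p = 0.0764), SFRP1, a secreted Wnt modulator, one of 0.22 (p = 0.0957), and SPP1, which encodes osteopontin, one of -0.24 (p = 0.105) by the authors' deposited table. SPP1 is also in the bile duct marker list. These lists are generic, so they say nothing of which genes GLI1 controls in chicken liver.

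**Figure D3:**
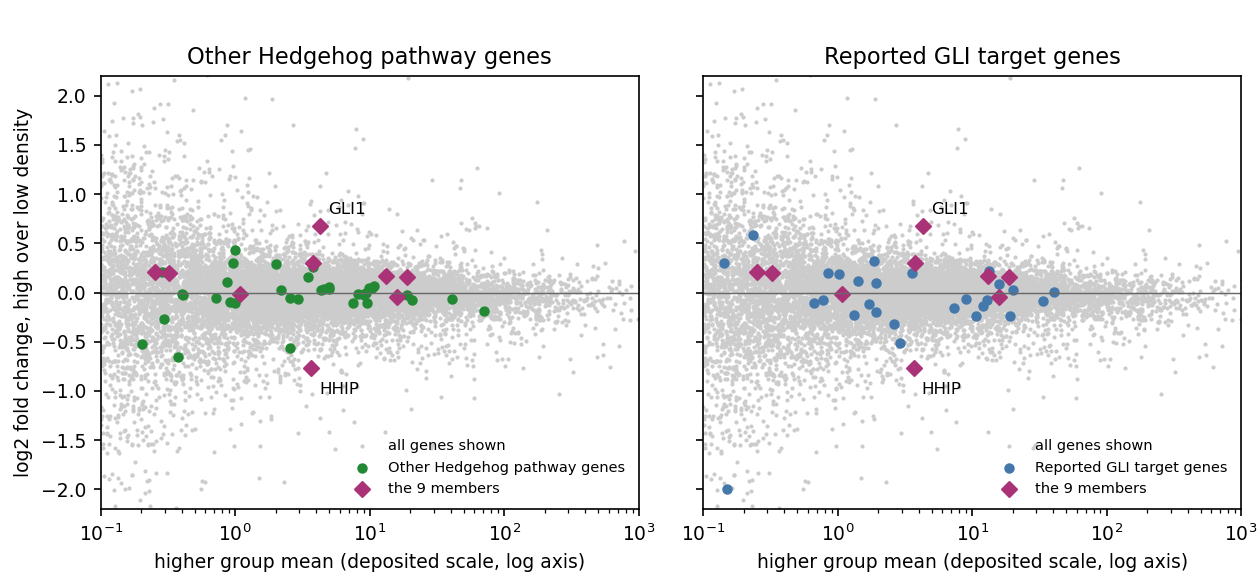
Log2 fold change against the higher group mean (log axis) for all genes with a mean of at least 0.1 (grey; values beyond 2.2 in size are not drawn), with other Hedgehog pathway genes on the left, reported GLI targets on the right, and the 9 members as diamonds in each panel. GLI1 (0.68) and HHIP (-0.76) lie at the edges of the grey cloud at their mean, and most other marked genes lie near 0.

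The gene models next to GLI1 were also examined, because adjoining models can share reads. GLI1 (ENSGALG00000042422) lies on the reverse strand of chromosome 33 (5544436 to 5553014). Its neighbour on the left, ENSGALG00000037186, stands 2436 bases away on the same strand and had a log2 fold change of 0.01 (approximate SE 0.13, adjusted p 1.0 by the authors' deposited table). On the right, ENSGALG00000048455 begins after a gap of only 58 bases on the same strand, and had a log2 fold change of -0.34, with a level of 0.105 in the high density group, against 0.134 in the low density group (approximate SE 0.43, adjusted p 1.0 by the authors' deposited table). In RefSeq's annotation of a later assembly, GRCg7b, no gene lies between GLI1 and INHBE, the next named gene on that side, so whether ENSGALG00000048455 is a separate gene or a part of GLI1 is unknown here.

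The next gene with a name, INHBE, was itself called. INHBE, which encodes an inhibin beta subunit secreted by the liver (activin E), lies 10.2 kb from GLI1 on the same strand (5563234 to 5566047), with 2 unnamed models between them. It stood at 47.9 in the high density group, against 29.2 in the low density group, a log2 fold change of 0.71 (1.64-fold, approximate SE 0.16, adjusted p 0.0137 by the authors' deposited table). INHBE and INHBC are named here after their values were seen. INHBC, the inhibin beta gene that follows INHBE at 17.5 kb from GLI1, was lower and not called, at 90.1 in the high density group, against 104.7 in the low density group (log2 fold change -0.22, approximate SE 0.17, adjusted p 1.0 by the authors' deposited table). Within 100 kb of GLI1 there were 22 other genes with a value. INHBE was the 1 called among them, beside 0.273% of all genes tested. The median log2 fold change of those 22 was 0.01. An unadjusted p under 0.05 was found for 3 of them, beside 5.58% of all genes. Among the 18 with a mean of at least 1, log2 fold changes ran from -0.56 to 0.71. No gene was called within 100 kb of any of the other 8 members. Their windows held from 1 (PTCH1 and SHH) to 16 (IHH) genes with a value. With so few genes per window, nothing is read from these counts.

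GLI2 and GLI3 also have an inhibin beta gene near them, and their values, too, were known when they were chosen. INHBB lies 211.4 kb from GLI2, and stood at 0.284 in the high density group, against 0.140 in the low density group (log2 fold change 1.03, approximate SE 0.54, p = 0.0557, adjusted p 1.0 by the authors' deposited table). INHBA lies 113.2 kb from GLI3, and stood at 9.82 in the high density group, against 7.97 in the low density group (log2 fold change 0.30, approximate SE 0.16, p = 0.0569, adjusted p 1.0 by the authors' deposited table). INHBA lies within an unnamed model on the opposite strand, ENSGALG00000047377, whose log2 fold change was 0.44 (p = 0.00082, adjusted p 0.176 by the authors' deposited table). Where exons of the pair overlap, reads cannot be told apart unless they were counted by strand. Exon positions were not examined. Positive log2 fold changes were found for all 3 GLI genes and for INHBE, INHBB and INHBA, and a negative one for INHBC. Only those of GLI1 and INHBE were called. Over all 20170 genes with a value 50.3% were higher. As these genes were chosen with their values known, nothing is read from the shared sign.

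**Figure D4:**
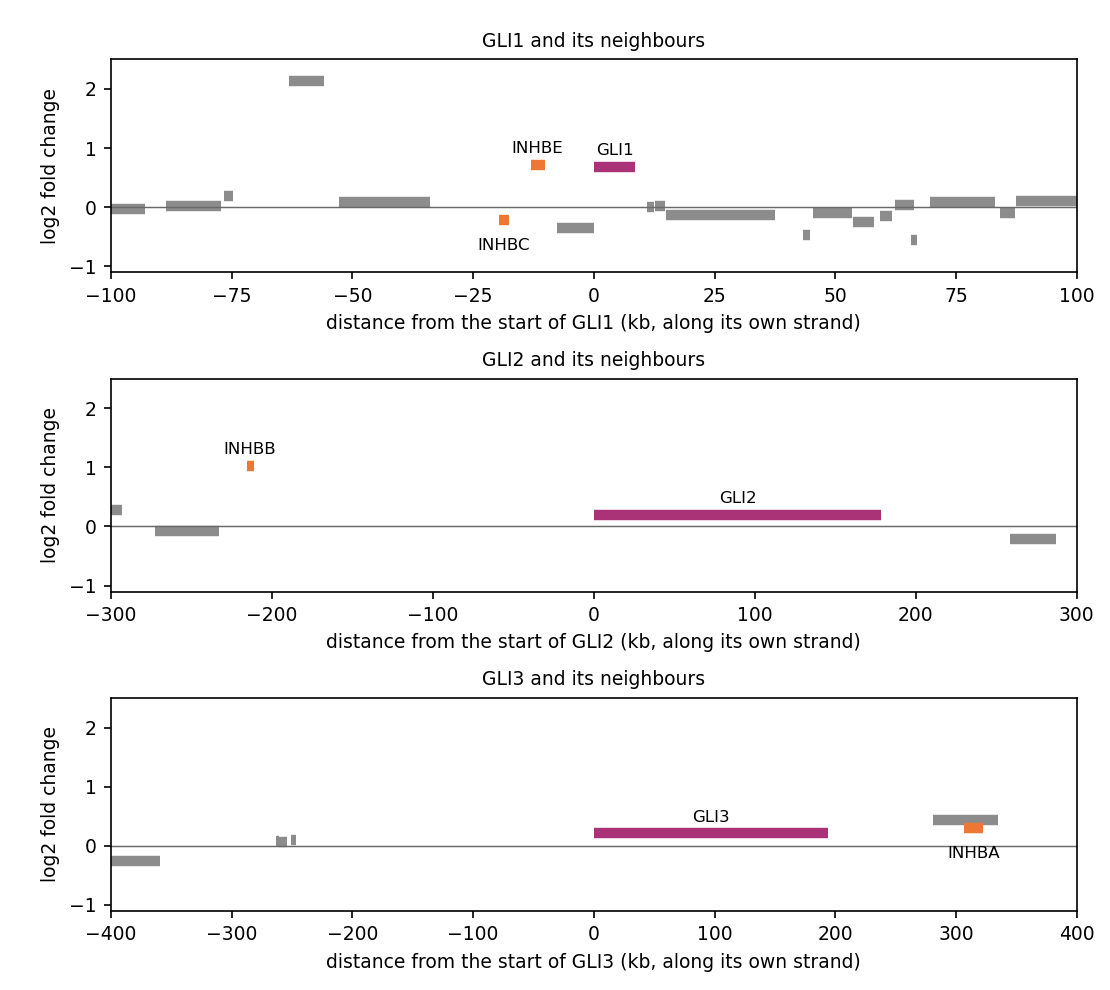
Log2 fold change (high over low density) of genes with a mean of at least 0.1 around GLI1, GLI2 and GLI3, by distance from the start of the GLI gene along its own strand (kb); each bar spans 1 gene model, the GLI genes are purple, inhibin beta genes orange and other genes grey. GLI1 (0.68) and INHBE (0.71) are the only called genes in the upper panel, and both are shown with their values known. A gene model between them, at -0.34, and INHBC, at -0.22, lie below 0. The grey bar above 2 is STAC3, which was not called.

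Apart from ENSGALG00000011349 beside IHH, the nearest gene models of the other members had small differences or low levels. None of these models, ENSGALG00000011349 included, was called. Beside SMO, AHCYL2 had a log2 fold change of -0.13. ACTR1A and TRIM8 beside SUFU had values of 0.02 and 0.04, FANCC beside PTCH1 one of -0.10, RBM33 beside SHH one of 0.02 and NHEJ1 beside IHH one of 0.01 by the authors' deposited table. ENSGALG00000011349, beside IHH on its right, stood at 9.58 in the high density group, against 7.63 in the low density group. It had the smallest p of the models next to IHH (log2 fold change 0.33, approximate SE 0.19, p = 0.0769 by the authors' deposited table). ACTR1A ends 622 bases before SUFU begins, on the opposite strand.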

How the data were processed

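Liver RNA of 8 pooled libraries was sequenced on an Illumina HiSeq, per the labels' protocols. The analysis starts from the authors' deposited table of 1 comparison, which holds 0 columns of values per library, so the edgeR or limma fit named in the plan did not apply and no test was run. Per the file headers, the table gives the higher group mean, a log2 fold change (D over A), a signed fold change used as a score of direction and size, a p-value and 2 adjusted p-values. Positions are on GRCg6a, the build that the submitters' processing notes name. The aligner, counting method, scaling and statistics behind it were not given in the sources used here. Nor does the header name the scale of the mean. Multiplied by the length of the gene model, 561 of the 570 means with a product under 10 fell on 8 values, equal to 4 decimals, the largest 1.52 times the smallest. The deposited mean is thus scaled by length and library, and if each step is 1 read of 1 library, library totals differed by at most that factor. Their size in reads, the depth, is unknown. The exon length used for each gene is not given.

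The 3443 genes whose values are all 0 were left out of counts and ranks. Recomputing the Benjamini-Hochberg adjustment over all 23613 rows gave the deposited adjusted p-values to within 2.4e-05. The lower mean was computed from the higher mean and the log2 fold change, and the approximate SE as the size of the log2 fold change over the normal quantile of its p. Python 3.11.15, pandas 2.3.3 and scipy 1.17.1 were used, and the adjustment and the approximate SE were tested on simulated data. The simulated p-values came from the same normal formula, so the assumption of a Wald test was not tested. The members and lists were chosen with earlier results of these data known. Besides the 9 members, the text names for each list (the cell type markers taken as 1 list) the called genes and the 3 smallest p-values among genes with a mean of at least 1, preset pathway genes (DHH, BOC, CDON, GAS1 and KIF7; 1 other is not reported here), and the nearest and overlapping gene models. DISP3, DISP1, STAC3, PYROXD2, LOXL4, HBA1, HBBA and HBZ were named outside these rules, with their values known. So were the inhibin beta genes, the model over INHBA and the genes listed at 0. Alternatives were other thresholds, other adjustments and centring.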

Additional observations from a re-analysis of the deposited data

How the results depend on the processing

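With the median of expressed genes (a mean of at least 1) subtracted, GLI1 had a log2 fold change of 0.69. HHIP then had one of -0.75. The median subtracted was -0.008, smaller in size than the difference of any of the 9 members, so no direction could change. GLI1 passed 0.05 when adjusted over genes with a result (0.0183) or over genes with a mean of at least 1 (0.0121), but not 0.01 (deposited adjusted p 0.0214) or the Bonferroni adjustment (0.812). The count of members called was thus 0 at 0.01 and under Bonferroni. It was 2 when adjusted over genes with a mean of at least 1, where HHIP joined (0.0408), and 2 at an unadjusted p under 0.05 (HHIP, 0.000195). At that unadjusted limit 1 other pathway gene and 2 cilium genes passed. These changes follow from the thresholds and the number of tests. No paired analysis was possible because the table holds no values per library, and for the same reason no library could be left out in turn. The depth behind each value is unknown, and the approximate SE was widest, among the 9 members, for GLI2 and GLI3 (0.31 each).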

Other observations

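GLI1 and INHBE were 1 of 4 pairs of neighbouring called genes within 100 kb of each other among the 55 called genes. In each of the 4 pairs both genes had the same direction. How often neighbours do so over all genes was not examined, so nothing is read from this count. The other named pair was PYROXD2 (log2 fold change 0.89) and LOXL4 (1.21) on chromosome 6, separated by 1069 bases. The remaining 2 pairs, on chromosomes 5 and Z, have no gene symbol. Of these 4 pairs, the one on chromosome Z overlaps. On chromosome 33, which holds GLI1, the 192 genes whose mean was at least 1 had a median log2 fold change of -0.05, and 71 of them (37.0%) were higher. Over all 10867 genes with such a mean the median was -0.008 and 47.8% were higher. At an unadjusted p under 0.05, 4 of the 192 were higher and 18 lower, beside 269 higher and 428 lower of the 10867.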
